A study of Mus musculus with 4 samples.

Results

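Levels of 7 microRNAs (miRNAs) of the lung's vessels were followed in mouse lung across age and oxygen exposure. The members, chosen by name among 750 miRNA assays, were mmu-miR-143 and mmu-miR-145, known from smooth muscle, and mmu-miR-126-5p, mmu-miR-218, mmu-miR-139-5p, mmu-miR-221 and mmu-miR-222, known from endothelium. They are written without the species prefix below. The 4 groups were adult mice in hyperoxia (95% oxygen), adult mice in room air, newborn mice in hyperoxia and newborn mice in room air, each exposed for 72 h. Adults were 2 months old, and newborns were under 12 h old at the start and 3 days old at collection. In every group the pulmonary artery was flushed with saline and the right lung taken. Nursing dams changed between both atmospheres every 24 h. Each group had 1 library, and the labels give neither strain nor sex, nor how many animals a library holds, so no difference between libraries could be set against a spread between replicates.

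The right lung holds all of its cell types, so in these bulk libraries fewer cells of a type and less RNA per cell cannot be told apart. A miRNA guides the silencing complex to messenger RNAs through its seed, near its 5′ end, and lowers their translation or stability. The miR-143 and miR-145 genes are transcribed together under serum response factor and myocardin and maintain the contractile state of vascular smooth muscle. miR-126, encoded in the endothelial gene Egfl7, sustains vascular endothelial growth factor signalling and vessel integrity. The lung of a newborn mouse has yet to form most of its alveoli and to remodel its capillaries, and prolonged hyperoxia injures the lung endothelium.

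The sequences show which members could recognise the same targets and which genes they come from. They are from RefSeq (GRCm38.p6), 5′ to 3′, with the seed (bases 2 to 8) in capitals, for 4 of the 7 members and for partner strands whose values are given below.
miR-221: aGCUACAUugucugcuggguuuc
miR-222: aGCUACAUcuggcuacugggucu
miR-218: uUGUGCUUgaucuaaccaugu
miR-218-1*: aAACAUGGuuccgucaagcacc
miR-218-2*: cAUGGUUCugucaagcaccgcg
miR-139-5p: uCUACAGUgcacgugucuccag
miR-139-3p: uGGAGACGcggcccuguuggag
miR-126-3p: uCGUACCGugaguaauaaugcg
miR-221 and miR-222 shared their first 8 bases, seed included, and 11 of 23 bases in all when set side by side from the 5′ end. Their mature sequences lie on the minus strand of the X chromosome, at chrX:19146307-19146329 and chrX:19146901-19146923, with 571 bases between them and no other annotated gene spanning either. None of the other sequences shown had that seed. The mature miR-218 is encoded at 2 places, chr5:48223966-48223986 within Slit2 and chr11:35616840-35616860 within Slit3, both on the plus strand, and its assay does not tell them apart. miR-139-5p lies at chr7:101475382-101475403 on the plus strand within Pde2a, and miR-126-3p at chr2:26591402-26591423 on the plus strand within Egfl7.

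Each level below is a log2 value against the small nucleolar RNA snoRNA202 of the same card, with higher values for more RNA. Quantitative PCR reads a threshold cycle (Ct) per well, and an assay counted as detected at a Ct of 35 or below. All 7 members were detected in all 4 libraries, at Ct 12.35 to 21.22, well before that limit. All 7 lie on the first of the 2 cards, so a difference between 2 members in a library does not depend on the reference RNA. Levels of different assays are not comparable as copy numbers, because assays amplify with different efficiency. Precision could be read only from 4 control RNAs that both cards carry. Their gap between cards gave a technical SD of a difference of 0.95 log2 for adult against neonatal hyperoxia and 0.65 for adult against neonatal room air, and of 0.33 for hyperoxia against room air in adults and 0.26 in neonates. These SDs leave out variation between animals. Of 750 miRNA assays, 468 were detected in adult hyperoxia, 468 in adult room air, 507 in neonatal hyperoxia and 477 in neonatal room air, with a median detected Ct of 24.0 to 24.2.

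**Figure D1:**
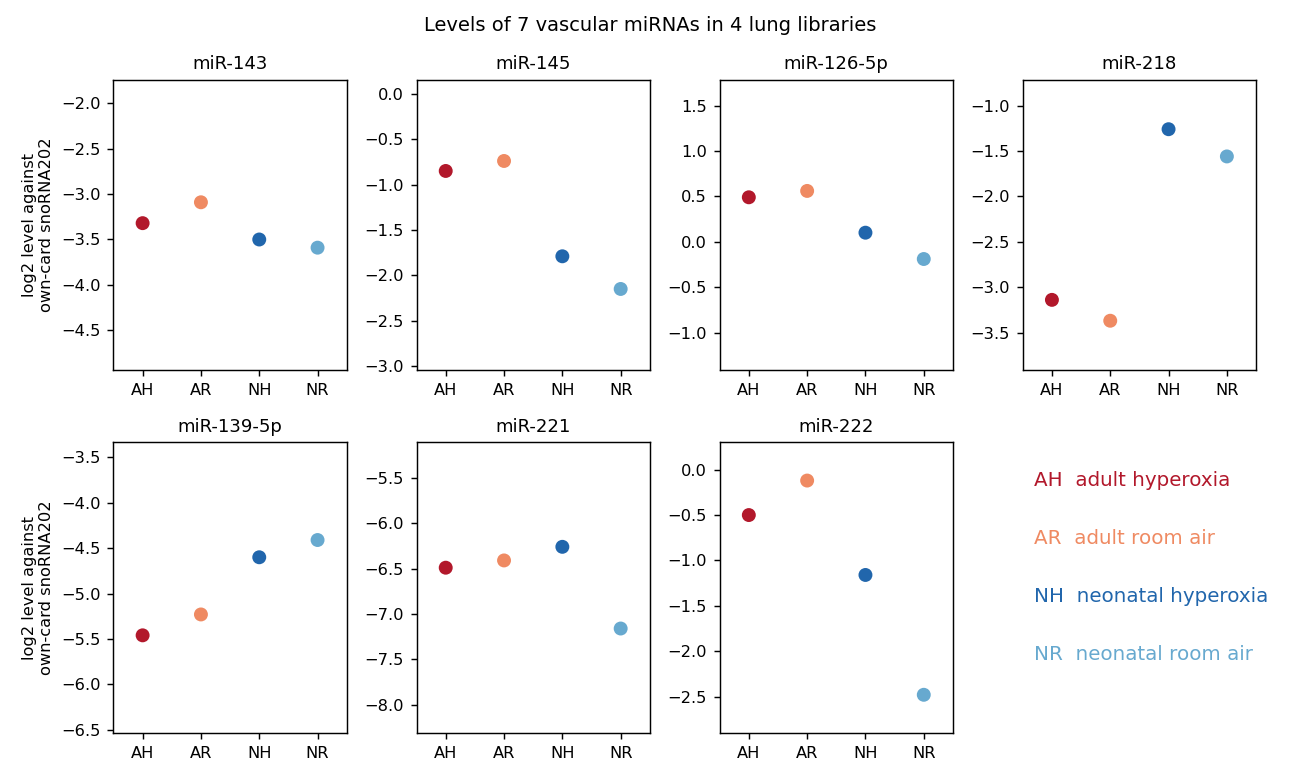
Log2 level of each of the 7 miRNAs against the snoRNA202 of the same card (vertical axis, each panel spanning the same number of log2 units) in the 4 libraries (horizontal axis), 1 point per library with no replicate. miR-218 was at -3.14 and -3.37 in the adult libraries and at -1.26 and -1.56 in the neonatal ones, and the lowest point of miR-222, -2.48, is neonatal room air.

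In the smooth muscle pair, the adult libraries had higher values of miR-145 than the neonatal ones. Those of miR-143 differed by less than the technical SD in the first card's assay and by more in a second assay. None of these passed the age test given below. miR-145, which favours the contractile state of smooth muscle, was at -0.85 in adult hyperoxia, -0.74 in adult room air, -1.79 in neonatal hyperoxia and -2.15 in neonatal room air. Both adult levels were above both neonatal levels. The adult libraries were 1.91-fold higher in hyperoxia (0.94 log2, 0.99 technical SD) and 2.66-fold higher in room air (1.41 log2, 2.18 technical SD). In order of level, the oxygen step in the adult (0.12) and the step between adult and neonatal hyperoxia (0.94) did not exceed their technical SDs, and the oxygen step in the neonate (0.36) did.

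miR-143, its cluster partner, was at -3.32 in adult hyperoxia, -3.09 in adult room air, -3.50 in neonatal hyperoxia and -3.59 in neonatal room air. The order of the libraries was that of miR-145, but no neighbouring levels differed by more than the technical SD. The adult level was 0.18 log2 higher in hyperoxia and 0.50 higher in room air. A second assay, named for rat miR-143 and placed on the second card, was at -7.91 in adult hyperoxia, -7.58 in adult room air, -8.92 in neonatal hyperoxia and -8.84 in neonatal room air. It gave larger age differences than the mouse assay, 1.01 in hyperoxia and 1.26 in room air. The passenger strand miR-145* was not detected in any library.

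Among endothelial members, miR-126-5p, one strand of the miR-126 duplex, was at 0.49 in adult hyperoxia, 0.56 in adult room air, 0.10 in neonatal hyperoxia and -0.19 in neonatal room air. Its adult levels were above its neonatal levels, by 0.39 log2 in hyperoxia and 0.75 in room air, of which the second exceeded its technical SD and the first did not. Of the steps in that order, the 0.29 between neonatal hyperoxia and neonatal room air exceeded its technical SD. The other strand, miR-126-3p, which represses Spred1, an inhibitor of growth factor signalling, had age differences of the opposite sign against snoRNA202. It was at 2.88 in adult hyperoxia, 2.89 in adult room air, 3.54 in neonatal hyperoxia and 3.07 in neonatal room air, lower in the adult by -0.66 in hyperoxia and -0.18 in room air, both within the technical SD.

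miR-218, which in endothelium represses the Slit receptor Robo1, was the member lowest in adult lung relative to neonatal lung. Its level was -3.14 in adult hyperoxia, -3.37 in adult room air, -1.26 in neonatal hyperoxia and -1.56 in neonatal room air. The adult and neonatal levels did not overlap, and the gap of 1.59 between adult hyperoxia and neonatal room air exceeded a technical SD of 0.72. Of the other neighbours, the oxygen step in the neonate (0.30) exceeded its technical SD and that in the adult (0.23) did not. The adult level was 0.270-fold the neonatal level in hyperoxia (-1.89 log2, 1.99 technical SD) and 0.284-fold in room air (-1.81 log2, 2.80 technical SD). Its passenger strand miR-218-1*, from the Slit2 copy and read on the second card, was at -13.68 in adult hyperoxia, -12.99 in adult room air, -10.02 in neonatal hyperoxia and -11.03 in neonatal room air. That strand was likewise lower in the adult, by -3.66 in hyperoxia and -1.96 in room air. The strand from the Slit3 copy, miR-218-2*, read at Ct 29.39 to 32.08, had an adult minus neonatal difference of -2.11 in hyperoxia and of 0.28 in room air.

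miR-139-5p, encoded in Pde2a and known to restrain CXCR4, was at -5.46 in adult hyperoxia, -5.23 in adult room air, -4.60 in neonatal hyperoxia and -4.41 in neonatal room air. Adult levels were below neonatal levels, by -0.85 in hyperoxia (0.90 technical SD) and -0.81 in room air (1.26 technical SD). No neighbouring levels in that order differed by more than the technical SD. The other strand, miR-139-3p, was detected in neonatal hyperoxia alone, at Ct 27.44, against 35.63 in neonatal room air, 36.11 in adult hyperoxia and 40 (no crossing) in adult room air. With Ct 35 as the bound, its level in neonatal hyperoxia was at least 7.03 log2 higher than in neonatal room air, a change that miR-139-5p, at -0.19, did not show. That bound rests on 1 well per library, without replicate.

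miR-221 and miR-222, which share a seed and repress Kit and the cell cycle inhibitor Cdkn1b, had their lowest level in neonatal room air. miR-222 was at -0.50 in adult hyperoxia, -0.12 in adult room air, -1.16 in neonatal hyperoxia and -2.48 in neonatal room air. Both adult levels were above both neonatal levels. The adult level was 1.59-fold higher in hyperoxia (0.66 log2, 0.70 technical SD) and 5.14-fold higher in room air (2.36 log2, 3.64 technical SD). Among neighbouring levels, the oxygen steps in the adult (0.38) and in the neonate (1.32) exceeded their technical SDs, and the step between adult and neonatal hyperoxia did not.

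miR-221 was at -6.49 in adult hyperoxia, -6.41 in adult room air, -6.26 in neonatal hyperoxia and -7.16 in neonatal room air. Adult and neonatal levels overlapped, since neonatal hyperoxia was the highest of the 4, and no neighbouring levels differed by more than the technical SD. The age difference was -0.23 in hyperoxia (0.24 technical SD) and 0.75 in room air (1.16 technical SD). The first was above 0 under 4 of 6 normalizations and reached 2.75 with U6, and the second was above 0 under all 6. Here and below, the 6 include the deposited differences, which for the members equal the snoRNA202 levels, so that reference counts more than once.

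**Figure D2:**
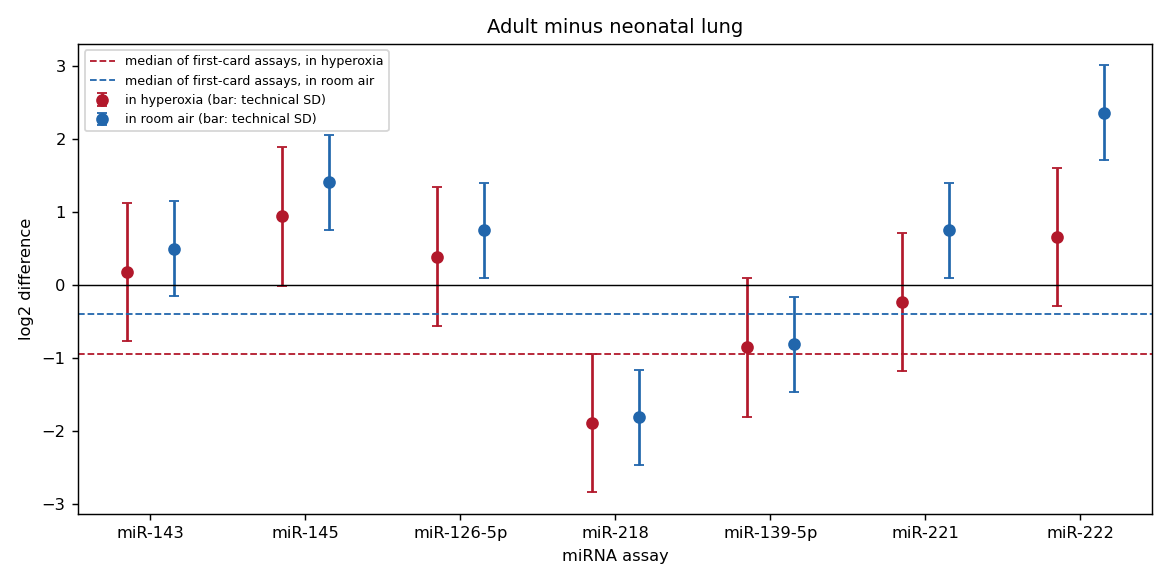
Adult minus neonatal difference of each member (vertical axis, log2) in hyperoxia and in room air, with bars of 1 technical SD on either side (0.95 and 0.65, from 4 control RNAs) and dashed lines at the median of all assays of the first card. miR-145, miR-126-5p, miR-143 and miR-222 lie above 0 in both pairs, while miR-218 and miR-139-5p lie below 0 in both.

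Age over both oxygen conditions was tested in an additive model of age and oxygen over the 4 libraries (limma), fitted to the 426 assays detected in all of them. Of the 7 members, miR-218 fell by 1.85 ± 0.30 log2 in the adult relative to the newborn libraries (SE; limma, adjusted p = 0.0305 by Benjamini-Hochberg over 426 assays), lower in both pairs. Over all assays 30.0% fell and 5.63% rose, so 1 fall among 7 members is no more than the background share. No member rose: 2 of 7, miR-218 and miR-145, had an unadjusted p under 0.05, and least squares without moderation called 0 members. miR-145 was at 1.18 ± 0.32 (limma, adjusted p = 0.0731), miR-222 at 1.51 ± 0.56 (limma, adjusted p = 0.126) and miR-139-5p at -0.83 ± 0.30 (limma, adjusted p = 0.115). miR-126-5p at 0.57, miR-143 at 0.34 and miR-221 at 0.26 had adjusted p of 0.241, 0.439 and 0.636 (limma). The passenger strand miR-218-1* fell by 2.81 ± 0.56 (limma, adjusted p = 0.0437). In this design an assay's own residual comes from the gap between its 2 age differences, which among the members was widest for miR-222. The SEs given here are moderated by the spread over all assays fitted. For miR-218 the SE was 0.30, against 0.04 without moderation.

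By fold alone, 0 of 7 members were at least 2-fold higher in adult than in neonatal hyperoxia (10.9% of 450 assays) and 2 of 7, miR-145 and miR-222, in adult than in neonatal room air (16.6% of 435). miR-218 was the 1 member at least 2-fold lower in either pair (49.3% and 43.0% of assays). The median of the members was 0.18 in hyperoxia, against -0.98 over all assays, and 0.75 in room air, against -0.57 over all assays. On the first card alone, the medians of all assays against snoRNA202 were -0.95 in hyperoxia and -0.39 in room air. In a member's position relative to the card's median the reference cancels. There 6 of 7 members lay above the median in hyperoxia and 5 of 7 in room air. miR-222 ranked 35 of 253 first-card assays from the highest in hyperoxia and 14 of 240 in room air, and miR-145 ranked 25 and 26. miR-218 ranked 176 and 184, so its position among first-card assays was below the middle but not at the bottom.

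The direction of the fitted age effect depended on the reference RNA for miR-218 and miR-139-5p, as did that of the miR-221 difference in hyperoxia. The fitted estimates of miR-143, miR-145, miR-126-5p, miR-221 and miR-222 were above 0 under all 6 normalizations tried, and miR-145 and miR-126-5p were called higher in adults under 4 of them (limma). miR-218 was called lower under 3, all with snoRNA202 in the reference, and its estimate ranged from -1.85 against snoRNA202 to 0.96 against U6. The deposited differences gave the members the same estimates as snoRNA202, and the mean of snoRNA202 and snoRNA135 includes it. The 6 normalizations are thus not independent. miR-139-5p ranged from -0.83 to 1.98, which was called higher with U6. U6 itself was lower in adults against snoRNA202, by -2.98 in hyperoxia and -2.65 in room air on the first card. On the second card U6 was lower by -0.66 in hyperoxia and -1.12 in room air, so the cards disagreed on the size of this shift. The signs found for the members with U6 rest on the first card's reading.

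**Figure D3:**
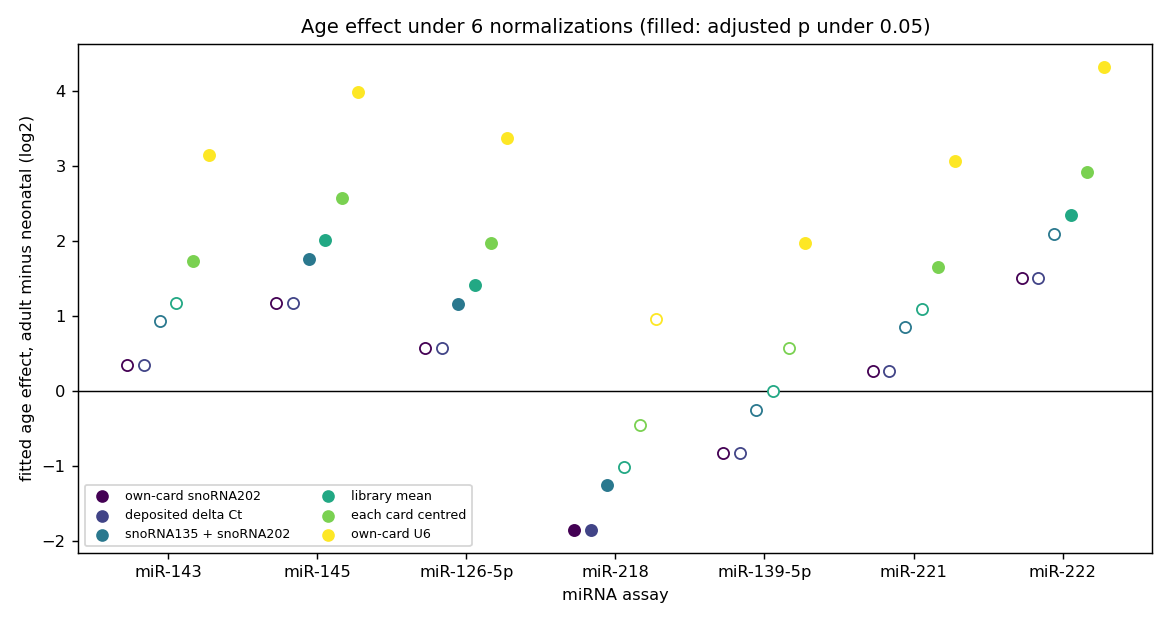
Fitted age effect of each member (adult minus neonatal, log2, vertical axis) under 6 normalizations, with filled points where the Benjamini-Hochberg adjusted p was under 0.05. The points of one member shift together with the reference: miR-145 spans 1.18 to 3.99 and miR-218 spans -1.85 to 0.96.

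Among the members, miR-222 and miR-221 had the largest differences between neonatal hyperoxia and neonatal room air, and no member was called with oxygen in the model. In neonatal hyperoxia miR-222 was 2.50-fold the neonatal room air level (1.32 log2, 5.17 technical SD), and miR-221 was 1.86-fold that level (0.90 log2, 3.52 technical SD). miR-145 at 0.36, miR-218 at 0.30 and miR-126-5p at 0.29 were 1.42, 1.18 and 1.13 technical SD above 0, and miR-143 at 0.09 and miR-139-5p at -0.19 were within 1 technical SD. Across the 6 normalizations miR-222 ranged from 1.12 to 1.32 and miR-221 from 0.70 to 0.90. The ranges were 0.16 to 0.36 for miR-145, 0.10 to 0.30 for miR-218 and 0.09 to 0.29 for miR-126-5p. For these the low end was under the technical SD of 0.26, so whether they exceeded it depended on the reference. miR-222 was the 1 of 7 members at least 2-fold higher (13.6% of 469 assays, so that 1 of 7 is near the background share), and 0 of 7 were at least 2-fold lower (8.53%). The median of the members, 0.30, was close to that of the first card's assays, 0.24, among which miR-222 ranked 18 and miR-221 ranked 40 of 267.

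In adults after hyperoxia no member was at least 2-fold higher (3.79% of 448 assays) or lower (8.26%). miR-222 was 0.771-fold the adult room air level (-0.38 log2, 1.13 technical SD). The other 6 lay within 1 technical SD of 0, between -0.23 for miR-143 and miR-139-5p and 0.23 for miR-218. The signs of these adult differences depended on the reference: those of miR-143, miR-145, miR-126-5p, miR-139-5p and miR-221 were above 0 under 4 of 6 normalizations, that of miR-222 under 1 and that of miR-218 under all 6. The members' median was -0.12, against -0.29 for the first card's assays. The additive model called 0 of 7 members with oxygen, and 0 of 426 assays in all (0.0% higher and 0.0% lower; limma, lowest adjusted p = 0.988). There 13 assays had an unadjusted p under 0.05, none of them a member, and least squares without moderation also called 0. This model assumes one oxygen effect for both ages, and for miR-222 the adult oxygen difference was 1.70 log2 below the neonatal one, a gap that this design cannot test.

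**Figure D4:**
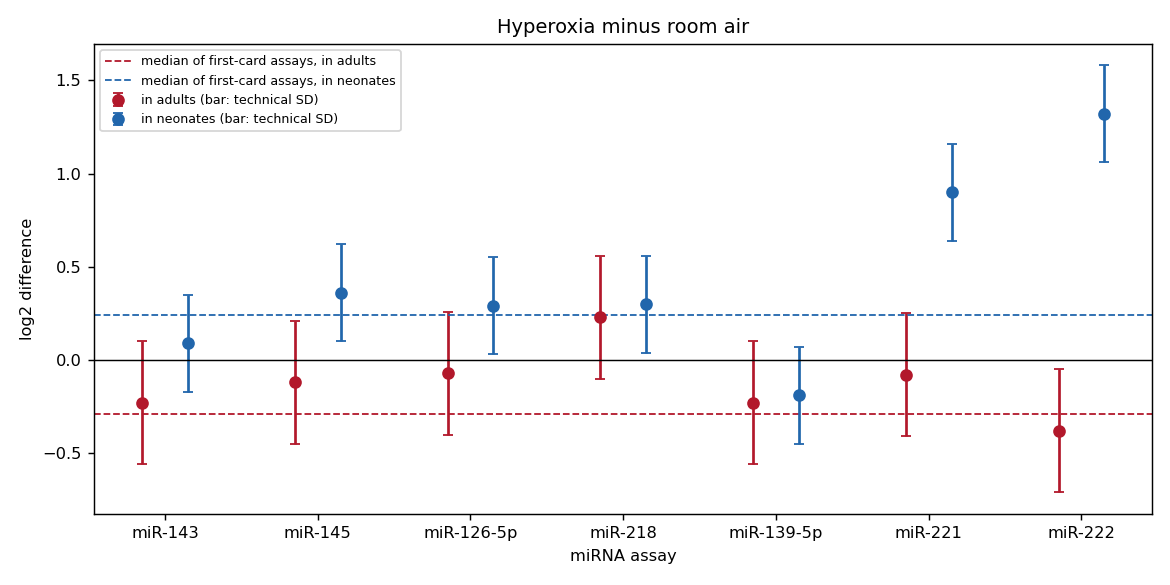
Hyperoxia minus room air difference of each member (vertical axis, log2) in adults and in neonates, with bars of 1 technical SD on either side (0.33 and 0.26, from 4 control RNAs) and dashed lines at the median of all assays of the first card. The neonatal points of miR-221 (0.90) and miR-222 (1.32) stand apart from the rest.

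The difference between partners of one transcript was also compared across libraries. miR-143 minus miR-145 was -2.47 in adult hyperoxia, -2.36 in adult room air, -1.71 in neonatal hyperoxia and -1.44 in neonatal room air, a change with age of -0.76 in hyperoxia and -0.92 in room air. miR-221 minus miR-222 was -6.00 in adult hyperoxia, -6.29 in adult room air, -5.10 in neonatal hyperoxia and -4.68 in neonatal room air, a change of -0.89 in hyperoxia and -1.61 in room air. In both of these duos the second partner stood higher relative to the first in adults. For miR-143 and miR-145 this holds for the first card's miR-143 assay. The rat-named miR-143 assay was higher in adults by 1.01 in hyperoxia and 1.26 in room air, beside 0.94 and 1.41 for miR-145. That assay, on the second card, thus did not show the change. miR-126-5p minus miR-126-3p was -2.39 in adult hyperoxia, -2.32 in adult room air, -3.44 in neonatal hyperoxia and -3.26 in neonatal room air. The 5p strand thus stood higher relative to the 3p strand in adults, by 1.05 in hyperoxia and 0.94 in room air. miR-126-3p crossed at Ct 9.96 to 10.98, earlier than any member, and whether its assay reads in proportion there was not tested. The technical SD given above includes the error of snoRNA202, which cancels in these same-card differences, so it does not measure their precision. These differences do not depend on the reference RNA. The adult and neonatal values did not overlap in any of these 3 pairs, and with hyperoxia none of the 3 changed by more than 0.42. The strands of miR-139 are left out of this statement, because miR-139-3p was detected in neonatal hyperoxia alone. There it was at least 7.03 log2 above neonatal room air, while miR-139-5p changed by -0.19.

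**Figure D5:**
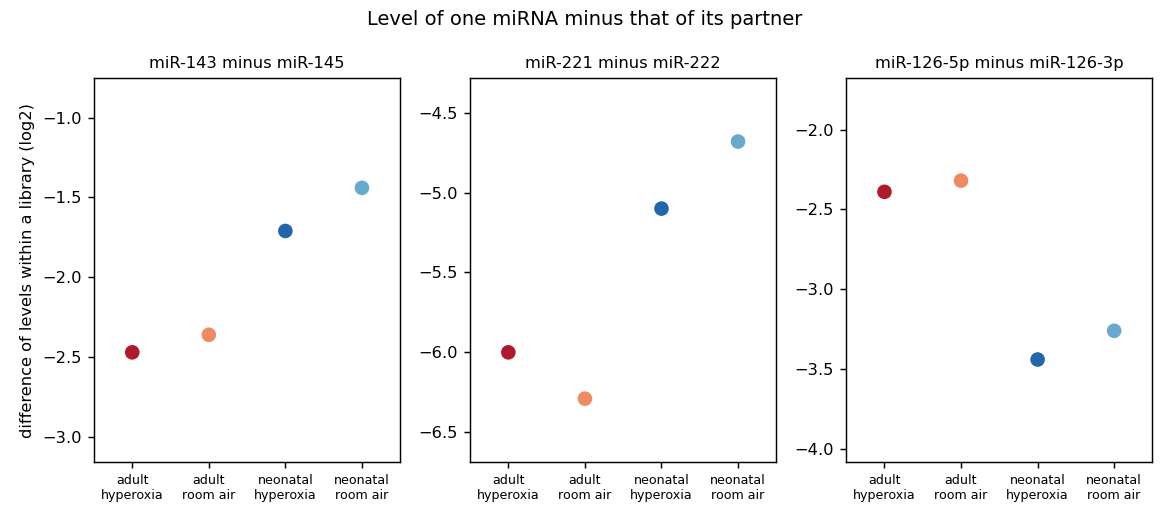
Level of one miRNA minus that of its partner in the same library (vertical axis, log2) in the 4 libraries, 1 point per library. In adults miR-143 minus miR-145 and miR-221 minus miR-222 are lower than in neonates, while miR-126-5p minus miR-126-3p is higher (-2.39 and -2.32 against -3.44 and -3.26).

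Profiles over the 4 libraries were also compared after centring each on its own mean. miR-143 and miR-126-5p were the closest members, at a root mean square distance of 0.15 log2, and miR-218 and miR-222 the farthest apart, at 1.73. The cluster partners miR-143 and miR-145 were 0.43 apart, and miR-221 and miR-222 were 0.65 apart. Among 381 other assays that crossed by Ct 32 in every library, those closest to miR-143 were miR-375 and let-7b (0.06 each), to miR-145 miR-34c and miR-140* (0.07 each), and to miR-126-5p miR-101a (0.05) and miR-24-2* (0.07). For miR-218 they were miR-135a (0.06) and miR-214* (0.09), and for miR-139-5p miR-106b and miR-872* (0.05 each). For miR-221 they were miR-187 (0.06) and miR-96 (0.11), and for miR-222 miR-146b (0.22) and miR-22* (0.24). With 4 libraries these distances are descriptions.

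A wider list of 26 miRNAs with known roles in vessels had 25 on the cards and 24 in the model. With age 3 rose and 5 fell (limma, adjusted p under 0.05), beside 5.63% and 30.0% of all assays, and with oxygen 0 changed (limma). The rises were miR-23a, a regulator of endothelial sprouting, by 5.08 ± 1.07 (read late in the neonatal libraries, at Ct 33.46 and 34.86, and left out at a Ct limit of 32), miR-100, which represses mTOR, by 1.74 ± 0.38, and miR-125b-5p by 1.72 ± 0.30. Those that fell were miR-503 (-5.18), miR-296-5p (-4.41), miR-204 (-3.19), miR-210, induced by low oxygen (-2.71), and miR-322 (-2.29). With U6 the estimates of miR-210 and miR-322 turned to 0.10 and 0.52, while those of the other 3 stayed below 0 and those of the rises above 0 under all 6 normalizations. miR-21 was at least 2-fold higher in the adult in both pairs without a call, and miR-92a, miR-130a and miR-125a-5p were at least 2-fold lower in both without a call, and lay above 0 with U6. The list's fitted median was -0.01, against -0.84 over all 426 assays and 0.34 for the 7 members. In neonatal hyperoxia against neonatal room air, 3 of 24 list members were at least 2-fold higher, near the background share of 13.6% of 469 assays. They were miR-133a at 1.29, miR-125a-5p at 1.21 and miR-132, induced in growing endothelium, at 1.04. That count leaves out miR-155, a miRNA of activated leukocytes and endothelium. It crossed at Ct 19.65 in neonatal hyperoxia, against no crossing (Ct 40) in neonatal room air. With Ct 35 as the bound, that is a level at least 14.83 log2 higher. Its Ct was 18.95 in adult hyperoxia and 19.61 in adult room air. The gap rests on 1 well in neonatal room air without replicate, where a failed well cannot be told apart from absent RNA.

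Marker miRNAs of other cell types moved in the same comparisons. As sums of linear levels relative to snoRNA202, the 5 epithelial markers (miR-200 family) reached 0.490 in adult hyperoxia, 0.878 in adult room air, 1.16 in neonatal hyperoxia and 0.633 in neonatal room air, and 5 of 5 were higher in neonatal hyperoxia than in neonatal room air. The 4 leukocyte markers summed to 0.839, 1.08, 0.877 and 0.678 in the same order, and 3 of 4 were higher in the adult in either pair and in neonatal hyperoxia. The 3 fibroblast markers summed to 0.0710, 0.0946, 0.254 and 0.217, and 3 of 3 were lower in the adult in both pairs against snoRNA202. All these markers lie on the first card, whose assays had a median of 0.24 for neonatal hyperoxia against neonatal room air. With age the card's median was -0.95 in hyperoxia and -0.39 in room air. The epithelial and leukocyte rises in neonatal hyperoxia and the fibroblast fall thus had the card's sign, and the leukocyte rise in adults did not. The 3 erythroid markers summed to 0.0241, 0.0285, 0.0289 and 0.0450, and the 5 striated muscle markers to 0.0364, 0.0540, 0.0746 and 0.0318. The liver marker miR-122 summed to at most 5.82e-05. The part of these cell types in the differences of the members was not tested.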

How the data were processed

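Per the labels' protocols, right lung RNA was copied with 2 Megaplex primer sets, amplified in a pool and measured by TaqMan quantitative PCR; the files hold 2 cards of 384 wells. The authors deposited Ct values and Ct minus that of snoRNA202, both log2 quantities that are lower where RNA is more abundant, per the file headers. Instrument software and threshold were not given in the sources used here. In the adult room air library the deposited differences of the second card use the first card's snoRNA202, so levels were recomputed here as the snoRNA202 Ct of the same card minus the Ct. The Ct values of both deposited tables were identical.

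Pairs of libraries were compared by difference. With limma 3.58.1 (R 4.3.3), additive terms for age and oxygen were fitted to 426 assays, with 1 residual and 2.16 prior degrees of freedom. P-values had Benjamini-Hochberg adjustment, at a threshold of 0.05. The code was run on simulated data with independent noise of equal spread in all assays. Those data held no error of the reference RNA, so they do not show how well the fit does here. An error of the reference RNA is shared by all assays of a card, and the fit, which treats assays as separate, does not account for that. With 1 library per group and no statement of separate animals, p-values reflect the spread among these libraries only, which may be technical. The technical SD is the root mean square gap between cards of U6, snoRNA135, U87 and Y1, divided by the square root of 2. PCR has no read depth, so the Ct is given instead.

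The members and lists were chosen with earlier results of these data known, and the comparison with the first card alone was added after the values were seen. Named were the members, their partner strands and rat-named assays, the 2 assays closest in profile to each member, and vascular list members that were called or at least 2-fold apart the same way in both pairs of a factor; those named for neonatal hyperoxia alone were chosen after their values were seen. Other reference RNAs, Ct limits, variance models, model terms and a lower fold threshold were tried as alternatives.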

Additional observations from a re-analysis of the deposited data

Results flagged for a closer look

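For 5 members the oxygen difference had one sign in adults and the other in neonates, with 1 library on each side, and the difference between ages was not tested. The adult oxygen difference minus the neonatal one was -1.70 log2 for miR-222 (-0.38 in adults, 1.32 in neonates) and -0.98 for miR-221 (-0.08 and 0.90). It was -0.48 for miR-145 (-0.12 and 0.36), -0.36 for miR-126-5p (-0.07 and 0.29) and -0.32 for miR-143 (-0.23 and 0.09). These signs follow the reference: the adult difference was above 0 under 4 of 6 normalizations for miR-143, miR-145, miR-126-5p and miR-221, and under 1 for miR-222. The age difference of miR-221 also turned sign between atmospheres, at -0.23 in hyperoxia and 0.75 in room air, a gap of -0.98 that was not tested either. Under 4 of 6 normalizations its difference in hyperoxia was above 0, as in room air, and the sign did not turn.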

How the results depend on the processing

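No paired analysis was possible because each group has 1 library, and leaving one out leaves the additive model no residual degree of freedom. With age, the members called higher and lower (limma) were 0 and 1. They were 3 and 0 with the library mean, 6 and 0 against U6, 2 and 1 against the mean of snoRNA202 and snoRNA135 (both snoRNAs), 5 and 0 with each card centred, 0 and 0 with no Ct limit, 1 and 2 with a variance trend, 0 and 0 without moderation and 1 and 1 with age as the only term. The deposited differences and a Ct limit of 32 gave 0 and 1 again. Over all assays the counts were 24 and 128. They became 99 and 77 with the library mean, 196 and 71 against U6, 50 and 112 against both snoRNAs, 136 and 84 with each card centred, 6 and 72 with no Ct limit, 38 and 161 with a trend, 0 and 0 without moderation and 39 and 164 with age alone. Oxygen called 0 assays under every alternative run.

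Members at least 2-fold higher and lower in adult hyperoxia were 0 and 1 against snoRNA202, 5 and 0 with the library mean, 7 and 0 against U6, 3 and 1 against both snoRNAs, 5 and 0 with each card centred, and 2 and 2 at a 1.5-fold threshold. In adult room air they were 2 and 1, and then 4 and 1, 6 and 0, 4 and 1, 5 and 0, and 4 and 2. In neonatal hyperoxia 2 members passed at 1.5-fold, against 1. With U6 miR-218 turned to 1.09 in hyperoxia, 0.83 in room air and 0.96 in the model. The age estimate of miR-139-5p turned to 0.00 with the library mean, 1.98 with U6 and 0.57 with each card centred. The oxygen estimate of miR-143 turned to 0.18 with the library mean, 0.01 against U6 and 0.02 against both snoRNAs, and that of miR-139-5p to 0.04 with the library mean. A change of reference adds one constant to all members, by construction.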
